A study of Mus musculus with 6 samples.

Results

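Th1 and Th17 cells are the end points of alternative cultures of the same starting cell, and the RNA-Seq libraries of the 2 Th1 cultures were compared here directly with those of the 2 Th17 cultures. The libraries were chosen by their labels, 4 of the 6 in the series, the remaining 2 being Naive cells. All groups came from C57BL/6 mice of 1 to 2 months, from which CD4+CD44- naive T cells were separated out of pooled lymph nodes and spleens with a selection kit. Each sample thus pools cells of several organs. Both kinds of culture were stimulated for 5 days through CD3 and CD28 (bound antibodies or beads) and both contained anti-IL-4. Th1 cultures further received IL-12 and IL-2, and Th17 cultures received anti-IFN-γ, TGF-β, IL-6, IL-1β and IL-23. The cells were collected after the culture, and the sources used here name no purification at that step. Of 24223 genes in the count tables, 13189 passed the filter on low counts and were tested.

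Naive CD4+ T cells become Th1 cells under IL-12 and IFN-γ, which act through STAT proteins to induce T-bet, the product of Tbx21. Th1 cells secrete IFN-γ against intracellular microbes. Naive cells become Th17 cells under TGF-β with IL-6, which act through SMAD proteins and STAT3. Th17 cells secrete IL-17A, IL-17F and IL-22 at mucosal surfaces. The states are further set apart by the chemokine receptors that steer them to tissues, with CXCR3 typical of Th1 and CCR6 of Th17. The factors compete with each other, and each culture contains antibodies or cytokines that hold back the other fate.

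The replicates differed in depth, with 59973041 and 69080017 counts in replicate 1 of Th17 and Th1 and 17742158 and 18347752 in replicate 2. Levels are given in CPM, a count taken per 1000000 counts of its library after TMM scaling, in the order replicate 1, replicate 2. A gene was called when its edgeR quasi-likelihood test gave a Benjamini-Hochberg adjusted p under 0.01 and its absolute log2 fold change (Th1 over Th17) was above 1. By this rule 465 genes were higher in Th1 (3.53% of those tested) and 557 lower (4.22%). These are the shares to set beside the counts for gene lists below. In all 1022 called genes the groups did not overlap, which such a call all but requires. Over all genes tested, both Th1 libraries were above both Th17 libraries in 4212 and below both in 4703. The median log2 fold change of all genes tested was -0.02. Scaled by library size alone, that median moved to -0.23 and the higher genes made up 34.4% of the calls in place of 45.5%, so every change here is relative to the TMM scale. DESeq2 called 1043 genes higher and 952 lower, among them 462 and 548 of those given here. The Th1 replicates were less alike than the Th17 replicates: 15.4% of genes differed over 2-fold between the former and 6.92% between the latter. The number of calls depended on having both Th17 libraries. Without Th17 replicate 1 the test called 26 genes higher and 85 lower, and without Th17 replicate 2 it called 17 and 40. Without Th1 replicate 1 it called 1114 and 1029, and without Th1 replicate 2, 1038 and 937. All 1022 called genes kept an absolute log2 fold change above 1 in the same direction in each of these fits that tested them. Their selection on the same libraries largely fixes this, so it is no separate evidence. With 2 libraries against 2, an exact permutation test of a single gene could not go below p = 0.333.

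**Figure D1:**
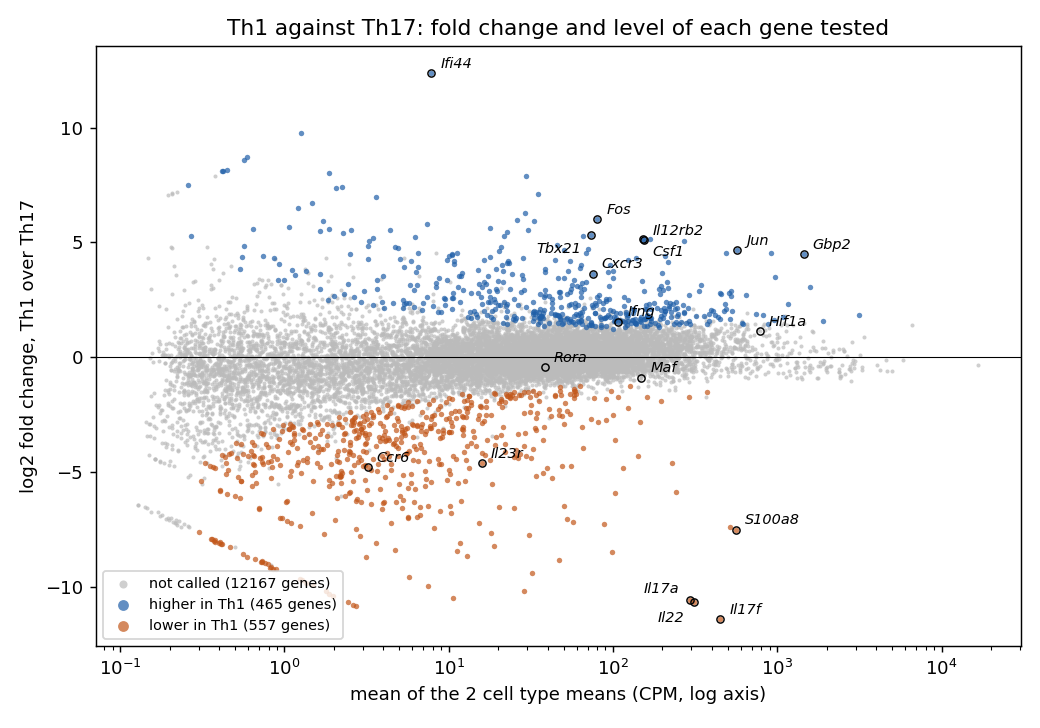
Log2 fold change of Th1 over Th17 (vertical axis) against the mean of both cell type means in CPM (horizontal log axis) for the 13189 genes tested; blue points are the 465 genes called higher in Th1, orange points the 557 called lower and grey points the rest. Il17a, Il17f and Il22 lay near the bottom at high levels, and Gbp2, Jun and Il12rb2 stood out among the abundant genes higher in Th1.

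Markers of myeloid cells differed between the cultures, being higher in Th17, while no marker of CD4 T cell identity was called. The 10 CD4 T cell identity genes summed to 3875 and 4676 CPM in Th17 and 4499 and 5549 CPM in Th1. Of 15 neutrophil markers tested, 13 were lower in Th1 and only Cxcr2 was higher, with a summed level of 3324 and 3159.6 CPM in Th17 and 78.1 and 99.0 CPM in Th1. S100a8, which encodes a calcium-binding protein of neutrophils and monocytes, was at 1115 and 1108 CPM in Th17 and 6.54 and 5.56 CPM in Th1, a log2 fold change of -7.51 (SE 0.37, edgeR adjusted p = 1.83e-05). Lyz2, the lysozyme of macrophages and granulocytes, was at 216 and 739 CPM in Th17 and 6.09 and 10.3 CPM in Th1, so the 2 Th17 libraries differed from each other as well. In all, 11 of 18 macrophage, monocyte and dendritic cell markers, 6 of 15 mast cell, basophil and eosinophil markers, 3 of 7 B cell markers, 2 of 10 CD8 T and NK cell markers and 3 of 7 erythroid and platelet markers were lower in Th1, and none of these was higher. Summed levels of the macrophage list were 743 and 1593 CPM in Th17 and 194 and 294 CPM in Th1. Those of the mast cell list were 307 and 671 CPM in Th17 and 89.7 and 70.6 CPM in Th1. The B cell list summed to 26.0 and 20.7 CPM in Th17 and 3.73 and 5.92 CPM in Th1. The CD8 T and NK cell list summed to 73.9 and 124 CPM in Th17 and 19.2 and 17.6 CPM in Th1. The erythroid and platelet list summed to 250.3 and 440.4 CPM in Th17 and 69.8 and 32.2 CPM in Th1. Cd8a, a defining gene of CD8 T cells, was at 1.34 and 0.219 CPM in Th17 and 0.597 and 0.244 CPM in Th1. Cd8b1 of the same list was higher than that and not called. On the common scale of all 6 libraries it was at 5.91 and 5.43 CPM in Th17 and 5.91 and 10.9 CPM in Th1. In such bulk samples fewer cells of a type and less RNA per cell cannot be told apart, and the part of these cells in the genes below was not tested.

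**Figure D2:**
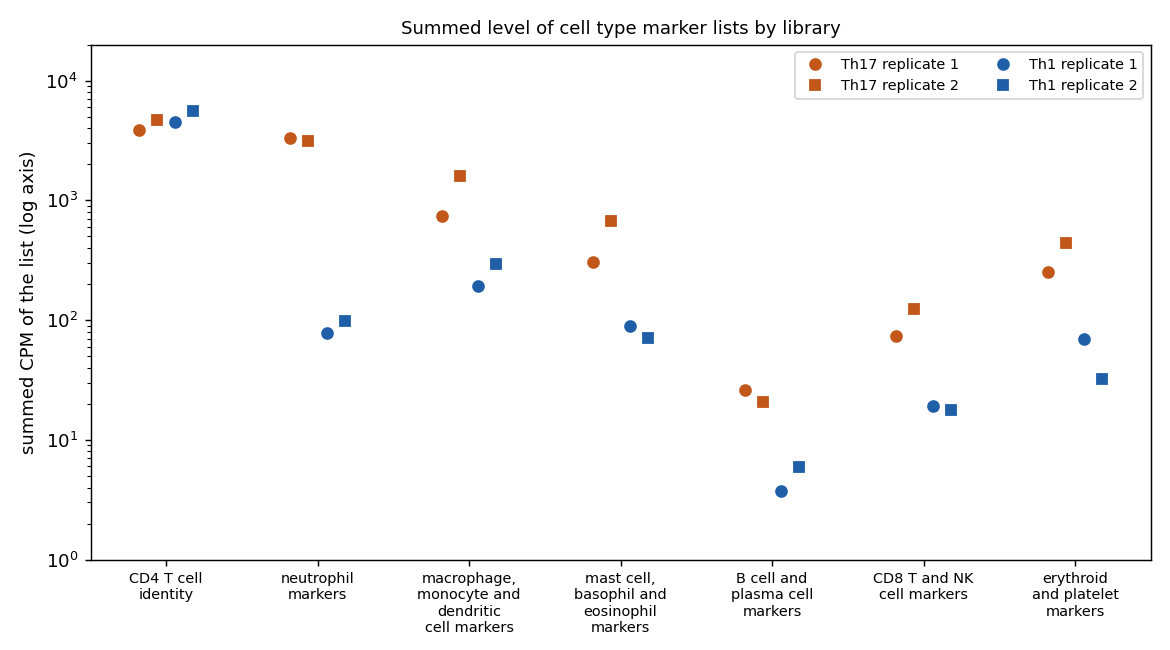
Summed CPM (vertical log axis) of 7 marker lists in each library; orange symbols are Th17 and blue symbols Th1, with circles for replicate 1 and squares for replicate 2. CD4 T cell identity genes lay within 3875 and 5549 CPM in all 4 libraries, while neutrophil markers summed to 3324 and 3159.6 CPM in Th17 and to 78.1 and 99.0 CPM in Th1.

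The T-box factors separated the cultures. Tbx21 (GENCODE vM21 on GRCm38, chr11:97098071-97115331, minus strand), the Th1 master regulator, was at 4.44 and 2.63 CPM in Th17 and 133 and 153 CPM in Th1, a log2 fold change of 5.30 (SE 0.35, edgeR adjusted p = 4.07e-05). Eomes, its T-box relative in memory and cytotoxic cells, followed the same pattern, at 1.08 and 0.658 CPM in Th17 and 11.9 and 11.5 CPM in Th1 with a log2 fold change of 3.69 (SE 0.44, edgeR adjusted p = 5.85e-04). For both T-box genes, neither Th17 library reached the level of either Th1 library.

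Of 12 Th1 transcription factors tested, 5 were higher in Th1 and none lower, with a median log2 fold change of 1.44. Besides the T-box pair these were Irf8, an interferon regulatory factor also essential to myeloid cells, at 29.7 and 27.2 CPM in Th17 and 166 and 124 CPM in Th1 with a log2 fold change of 2.35 (SE 0.28, edgeR adjusted p = 5.66e-04). Runx3, a partner of T-bet at the Ifng locus, was at 105 and 60.1 CPM in Th17 and 209.8 and 455 CPM in Th1, with the Th1 replicates apart but both above Th17, and had a log2 fold change of 2.01 (SE 0.42, edgeR adjusted p = 0.00964). Bhlhe40, which sustains cytokine production in helper cells, was at 112 and 111 CPM in Th17 and 363 and 490.1 CPM in Th1, a log2 fold change of 1.93 (SE 0.29, edgeR adjusted p = 0.00185). Stat4, the transducer of IL-12, and Irf1, an interferon-induced factor, were higher in both Th1 libraries yet were not called, with log2 fold changes of 1.07 (edgeR adjusted p = 0.0204) and 1.01 (edgeR adjusted p = 0.0269).

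Of 13 Th17 transcription factors, 1 was lower in Th1, beside 4.22% of all genes, and none higher. Maf, a factor that drives Il21 and Il10 in Th17 cells, was at 272 and 114 CPM in Th17 and 144 and 63.4 CPM in Th1, and the groups overlapped (log2 fold change -0.90, SE 0.46, edgeR adjusted p = 0.186). Hif1a, the oxygen-sensing factor that raises glycolysis, was instead above Th17 in both Th1 libraries, at 502 and 481 CPM in Th17 and 1103 and 1036 CPM in Th1, a log2 fold change of 1.12 (SE 0.29, edgeR adjusted p = 0.0235) that missed the threshold. Stat3, the transducer of IL-6 and IL-23, was at 292 and 235 CPM in Th17 and 311 and 356 CPM in Th1; the groups did not overlap, but the difference did not pass the test (log2 fold change 0.34, SE 0.27, edgeR adjusted p = 0.394). The median of the list was -0.13, and it was 0.09 without Th17 replicate 1.

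Of 20 factors of other helper fates and of the naive state, 2 were called, both higher in Th1, beside 3.53% of all genes. Gata3 (chr2:9857078-9890034, minus strand), known as the Th2 master regulator, was at 17.8 and 8.28 CPM in Th17 and 112 and 232 CPM in Th1, a log2 fold change of 3.70 (SE 0.46, edgeR adjusted p = 7.24e-04) that ranged over 3.10 to 4.38 with single libraries left out. Nfatc1, an effector of calcium signalling, was at 66.4 and 44.1 CPM in Th17 and 172 and 203 CPM in Th1, a log2 fold change of 1.76 (SE 0.29, edgeR adjusted p = 0.00342). Tcf7, Satb1 and Ikzf1, factors abundant in naive T cells, were not called. Tcf7 was at 1696 and 1295 CPM in Th17 and 567 and 1191 CPM in Th1, the only one of the 3 that was lower in both Th1 libraries, while Satb1 was at 749.8 and 656 CPM in Th17 and 1341 and 1782 CPM in Th1. Ikzf1 was at 503 and 389 CPM in Th17 and 753 and 795 CPM in Th1.

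**Figure D3:**
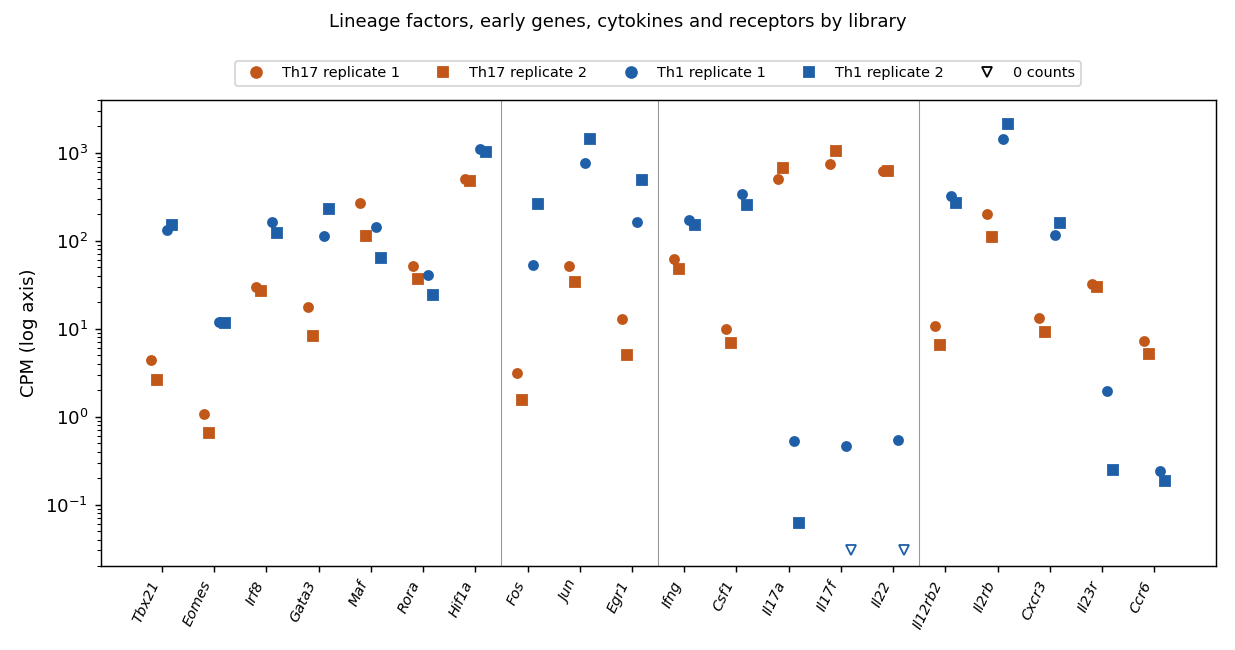
Level in CPM (vertical log axis) of 20 genes in each library, grouped from left to right as transcription factors, early response genes, cytokines and receptors; orange symbols are Th17, blue symbols Th1, circles replicate 1, squares replicate 2, and open triangles mark 0 counts. Fos, Jun and Egr1 were higher in Th1 replicate 2 than in replicate 1, and Maf and Rora overlapped between the groups.

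Fos and Jun, which pair to form the AP-1 factor downstream of T cell receptor and stress signals, were among the genes most raised in Th1. The upstream promoter stretches of Fos and of 2 further called early genes, the 250 bases before the transcription start (RefSeq, GRCm38.p6), are shown with each match to TGACG, the core of the cAMP response element, or its reverse complement in capitals.
Fos (chr12:85473640-85473889, plus strand): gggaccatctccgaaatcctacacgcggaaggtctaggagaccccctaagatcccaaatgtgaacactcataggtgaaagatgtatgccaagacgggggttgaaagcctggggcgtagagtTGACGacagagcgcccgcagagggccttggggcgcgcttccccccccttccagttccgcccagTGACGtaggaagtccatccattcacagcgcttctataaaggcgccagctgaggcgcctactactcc
Fosb (chr7:19310046-19310295, minus strand): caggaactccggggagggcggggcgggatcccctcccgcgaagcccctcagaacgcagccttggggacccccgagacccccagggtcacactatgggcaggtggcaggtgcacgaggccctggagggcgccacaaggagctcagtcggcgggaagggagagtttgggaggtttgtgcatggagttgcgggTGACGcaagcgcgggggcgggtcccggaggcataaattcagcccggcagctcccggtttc
Dusp1 (chr17:26508473-26508722, minus strand): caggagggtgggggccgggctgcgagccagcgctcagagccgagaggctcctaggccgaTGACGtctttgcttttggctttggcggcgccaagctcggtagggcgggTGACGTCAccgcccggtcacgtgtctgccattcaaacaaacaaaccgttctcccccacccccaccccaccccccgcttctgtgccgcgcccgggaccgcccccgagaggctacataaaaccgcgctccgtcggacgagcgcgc
Matches started 129 and 66 bases before the start in Fos, 60 bases before it in Fosb, and 191, 143 and 140 bases before it in Dusp1. Counted in promoters of 250 bases before to 50 after the start, these letters occurred in 9 of the 13 AP-1 family genes and 12 of the 20 immediate early genes that had a promoter in the table, against 23.0% of all 27025 genes. Among called members with a promoter in the table, the letters occurred in 2 of 3 AP-1 genes and 2 of 4 immediate early genes. The AP-1 genes with them were Fos and Fosb, and Jun had none. A match of 5 letters is a description of the sequence and not a site of binding.

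Fos (chr12:85473890-85477273, plus strand) was at 3.13 and 1.54 CPM in Th17 and 52.8 and 263 CPM in Th1, a log2 fold change of 6.01 (SE 0.74, edgeR adjusted p = 6.86e-04). The groups stood well apart, with Th1 replicate 2 the higher of the Th1 libraries, and the log2 fold change was 6.76 without Th1 replicate 1 and 4.44 without Th1 replicate 2. Jun (chr4:95049034-95052222, minus strand) was at 52.3 and 34.1 CPM in Th17 and 765 and 1427 CPM in Th1, a log2 fold change of 4.66 (SE 0.43, edgeR adjusted p = 1.60e-04). Fosb was at 0.906 and 0.274 CPM in Th17 and 4.69 and 15.5 CPM in Th1, a log2 fold change of 3.93 (SE 0.70, edgeR adjusted p = 0.0048), again highest in Th1 replicate 2. These were the 3 members called among 14 of the AP-1 family, which had a median log2 fold change of 0.90. Junb and Jund, partners of Fos proteins, were higher in both Th1 libraries but not called. Junb was at 585 and 459 CPM in Th17 and 767 and 1757 CPM in Th1. Jund was at 618 and 375 CPM in Th17 and 961 and 2495 CPM in Th1. Batf, the AP-1 protein that opens chromatin in Th17 cells, was at 146 and 166 CPM in Th17 and 83.3 and 109 CPM in Th1 and was not called (log2 fold change -0.70, SE 0.27, edgeR adjusted p = 0.0909).

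Among 26 immediate early and activation-induced genes, 5 were higher in Th1 and 1 was lower, beside 3.53% and 4.22% of all genes. Egr1, a zinc finger factor induced within minutes of receptor signalling, was at 13.0 and 4.99 CPM in Th17 and 163 and 491 CPM in Th1, a log2 fold change of 5.16 (SE 0.62, edgeR adjusted p = 6.30e-04). The 3 called dual-specificity phosphatases that switch off MAP kinases were higher in Th1 than in Th17 as well, while Dusp2, Dusp4 and Dusp10 were not called. Dusp5 was at 16.3 and 8.28 CPM in Th17 and 66.1 and 167 CPM in Th1, a log2 fold change of 3.23 (SE 0.48, edgeR adjusted p = 0.0019), Dusp1 at 19.5 and 16.1 CPM in Th17 and 69.4 and 149 CPM in Th1 (log2 fold change 2.61, SE 0.38, edgeR adjusted p = 0.00158). Dusp6 was at 16.1 and 22.3 CPM in Th17 and 60.1 and 79.7 CPM in Th1 (log2 fold change 1.87, SE 0.30, edgeR adjusted p = 0.00305). Ier2 was at 104 and 102 CPM in Th17 and 223 and 472 CPM in Th1, and its log2 fold change of 1.75 (SE 0.36, edgeR adjusted p = 0.00983) was close to the threshold. Gadd45b, a TGF-β and NF-κB target, was the member lower in Th1, at 44.2 and 46.1 CPM in Th17 and 14.0 and 17.5 CPM in Th1 with a log2 fold change of -1.53 (SE 0.29, edgeR adjusted p = 0.00642). Egr2, Egr3, Nr4a2 and Nr4a3, which answer the T cell receptor itself, did not pass the test, and Nr4a1 overlapped at 20.1 and 7.24 CPM in Th17 and 10.8 and 56.5 CPM in Th1. The median log2 fold change of the list was 0.35, and -0.03 without Th1 replicate 2; members were at a median log2 ratio of -0.74 in Th1 replicate 1 over replicate 2.

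**Figure D4:**
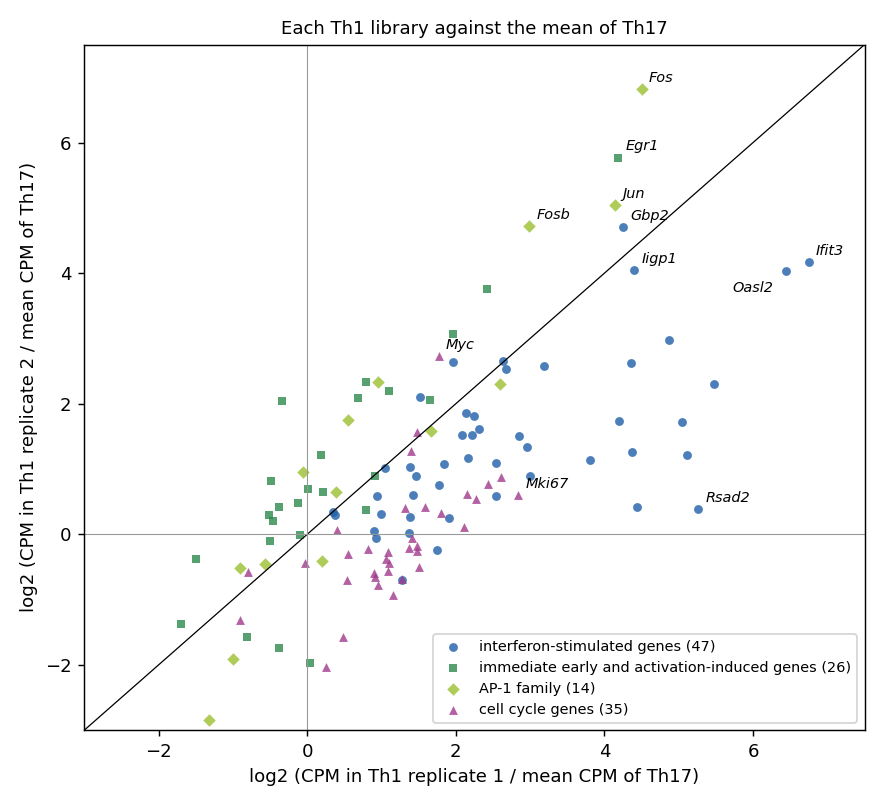
Log2 ratio of each Th1 library to the mean of Th17, replicate 1 on the horizontal axis and replicate 2 on the vertical axis, for the members tested of 4 gene lists; the diagonal marks equal ratios. Interferon-stimulated and cell cycle genes lay mostly below the diagonal, higher in Th1 replicate 1, and Fos, Egr1 and many early genes lay above it. Members with no count in a Th1 library or in both Th17 libraries, such as Ifi44, are not drawn.

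The signature cytokines were far apart. Il17a (chr1:20730905-20734496, plus strand) was at 510.4 and 669.8 CPM in Th17 and 0.523 and 0.061 CPM in Th1, a log2 fold change of -10.58 (SE 0.61, edgeR adjusted p = 2.25e-05). Its neighbour Il17f (chr1:20777146-20790617, minus strand) was at 746 and 1057 CPM in Th17 and 0.463 and 0 CPM in Th1, a log2 fold change of -11.41 (SE 0.74, edgeR adjusted p = 3.57e-05). Il22, which acts on epithelia, was at 617 and 626 CPM in Th17 and 0.537 and 0 CPM in Th1 with a log2 fold change of -10.68 (SE 0.71, edgeR adjusted p = 4.07e-05). For Il17f and Il22, Th1 replicate 2 held no count at all. Ifng (chr10:118441046-118445892, plus strand), the Th1 cytokine, was at 62.7 and 47.2 CPM in Th17 and 171 and 151 CPM in Th1. Its log2 fold change of 1.55 (SE 0.27, edgeR adjusted p = 0.00426) was called, but Th17 cultures, which contained antibody to the protein, still held its RNA.

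In all, 6 of 32 helper cytokines and TNF family ligands were higher in Th1 and 9 were lower. Csf1, the macrophage colony-stimulating factor, was at 9.99 and 6.91 CPM in Th17 and 343 and 253 CPM in Th1, a log2 fold change of 5.13 (SE 0.35, edgeR adjusted p = 4.08e-05) that held in each fit with 1 library left out. Fasl, the ligand that kills Fas-bearing cells, was at 1.4 and 1.98 CPM in Th17 and 33.4 and 28.6 CPM in Th1 (log2 fold change 4.23, SE 0.37, edgeR adjusted p = 1.38e-04). Tnfsf4, the OX40 ligand, was at 2.81 and 2.63 CPM in Th17 and 18.3 and 45.2 CPM in Th1 (log2 fold change 3.53, SE 0.47, edgeR adjusted p = 0.00102). Il10, which restrains inflammation, was at 3.44 and 1.37 CPM in Th17 and 25.3 and 15.6 CPM in Th1 (log2 fold change 3.04, SE 0.49, edgeR adjusted p = 0.00281). Osm, a cytokine of the IL-6 family, was at 29.2 and 23.5 CPM in Th17 and 68.3 and 139 CPM in Th1 (log2 fold change 1.97, SE 0.36, edgeR adjusted p = 0.00507). On the other side, Il2, whose protein was added to the Th1 cultures, was at 5.36 and 4.77 CPM in Th17 and 0.0896 and 0.183 CPM in Th1 with a log2 fold change of -5.41 (SE 0.62, edgeR adjusted p = 4.68e-04). The Th2 cytokines Il13 and Il4 were low in Th1, Il13 at 22.4 and 20.1 CPM in Th17 and 1.05 and 0.855 CPM in Th1. Il4 was at 4.08 and 4.11 CPM in Th17 and 0.717 and 0.488 CPM in Th1, although both cultures contained anti-IL-4, and Il21 was at 34.5 and 47.2 CPM in Th17 and 12.9 and 13.1 CPM in Th1. Tnfsf14, the TNF family ligand LIGHT, was lower as well at 21.6 and 20.1 CPM in Th17 and 4.21 and 2.63 CPM in Th1. Il1b was called lower too, but unevenly, at 1.71 and 10.2 CPM in Th17 and 0.373 and 0.244 CPM in Th1, and its log2 fold change fell to -2.38 without Th17 replicate 2, the library with the higher macrophage and mast cell marker sums. Csf2 and Tnf, made by both lineages, overlapped between the groups. Csf2 was at 29.5 and 23.8 CPM in Th17 and 19.7 and 31.4 CPM in Th1. Tnf was at 30.1 and 35.3 CPM in Th17 and 55.7 and 31.4 CPM in Th1.

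Chemokines were lower in Th1 as a group. Of 17 tested, 10 were called lower and none higher, with a median log2 fold change of -4.12 (-3.66 with the 4 members at the limit of 3 counts in both Th1 libraries set to that limit). Ccl20, the ligand of CCR6 made by Th17 cells, was at 1.35 and 1.54 CPM in Th17 and had no count in Th1, at least 12.7-fold lower against 3 counts in each library. The other called members were also highest in Th17 replicate 2, the library in which the macrophage and mast cell lists, but not the neutrophil list, summed highest; the part of those cells was not tested. Ccl9 was at 20.2 and 169 CPM in Th17 and 4.2 and 2.75 CPM in Th1, Cxcl3 at 7.1 and 37.4 CPM in Th17 and 0.0597 and 0.061 CPM in Th1. Ccl17 was at 2.4 and 22.1 CPM in Th17 and 0.209 and 0 CPM in Th1. The same held for Ccl2 at 1.26 and 11.2 CPM in Th17 and 0.0149 and 0 CPM in Th1. Cxcl2 was at 2.29 and 8.5 CPM in Th17 and 0.0896 and 0 CPM in Th1. Without Th17 replicate 2, the log2 fold change of Ccl9 was -2.52 against -4.73 with it, and the median of the list was -2.94. Ccl5, Ccl4 and Cxcl10 were not called. Cxcl10, an interferon-induced ligand of CXCR3, was at 2.57 and 1.32 CPM in Th17 and 14.2 and 2.99 CPM in Th1, above Th17 mainly in Th1 replicate 1.

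Receptors for several of the cytokines added to a culture were higher in that culture. Il12rb2 (chr6:67291318-67376188, minus strand), the signalling chain for IL-12, was at 10.7 and 6.47 CPM in Th17 and 326 and 271 CPM in Th1, a log2 fold change of 5.10 (SE 0.36, edgeR adjusted p = 4.45e-05), which stayed called whichever library was left out. Il2rb (chr15:78479256-78495271, minus strand), the shared chain for IL-2 and IL-15, was at 203 and 110.5 CPM in Th17 and 1453 and 2132 CPM in Th1, a log2 fold change of 3.51 (SE 0.41, edgeR adjusted p = 5.19e-04). Il18r1 and Il18rap, the chains for IL-18, which joins IL-12 in raising IFN-γ, were both higher in Th1. Il18r1 was at 161 and 165 CPM in Th17 and 758 and 840.4 CPM in Th1. Il18rap was at 92.3 and 83.1 CPM in Th17 and 342 and 297 CPM in Th1. Il10ra, the IL-10 receptor, was at 12.7 and 12.1 CPM in Th17 and 82.4 and 114 CPM in Th1 (log2 fold change 2.98, SE 0.29, edgeR adjusted p = 2.20e-04). Il6st, which encodes gp130, the common chain for IL-6 family cytokines, was higher in Th1 at 83.0 and 74.1 CPM in Th17 and 536 and 633 CPM in Th1 (log2 fold change 2.89, SE 0.29, edgeR adjusted p = 2.56e-04), although IL-6 was a cytokine of the Th17 culture. Il1rl1, the IL-33 receptor, completed the 7 of 37 cytokine receptors called higher, at 15.3 and 26.8 CPM in Th17 and 53.8 and 138 CPM in Th1.

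Another 7 cytokine receptors were lower in Th1. Il23r, the Th17 receptor for IL-23, was at 32.1 and 29.5 CPM in Th17 and 1.94 and 0.244 CPM in Th1, a log2 fold change of -4.63 (SE 0.65, edgeR adjusted p = 0.00137). Il1r1, the receptor for IL-1β, was at 65.9 and 46.8 CPM in Th17 and 2.75 and 2.93 CPM in Th1 (log2 fold change -4.32, SE 0.35, edgeR adjusted p = 8.13e-05). Its decoy Il1r2 was at 72.3 and 66.8 CPM in Th17 and 5.15 and 6.47 CPM in Th1 (log2 fold change -3.59, SE 0.31, edgeR adjusted p = 1.21e-04). The chains of one receptor did not always move together. Ifngr2, the second chain of the IFN-γ receptor, was at 34.7 and 41.8 CPM in Th17 and 2.51 and 6.96 CPM in Th1 (log2 fold change -3.06, SE 0.47, edgeR adjusted p = 0.00232), while Ifngr1 was higher in both Th1 libraries at 272 and 337 CPM in Th17 and 587 and 883 CPM in Th1 and was not called. Il17re was at 24.7 and 9.82 CPM in Th17 and 2.88 and 2.56 CPM in Th1, Il13ra1 at 1.9 and 3.29 CPM in Th17 and 0.0746 and 0.183 CPM in Th1. Csf2rb was at 36.7 and 60.4 CPM in Th17 and 12.8 and 5.07 CPM in Th1. Il2ra and Il2rg, the remaining IL-2 receptor chains, were above Th17 in both Th1 libraries without passing the test. Il2ra was at 478 and 293 CPM in Th17 and 998 and 802 CPM in Th1. Il2rg was at 435 and 441 CPM in Th17 and 727 and 729 CPM in Th1.

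Of 26 chemokine and migration receptors, 6 were higher and 5 lower. Cxcr3 (chrX:101731535-101734269, minus strand), which takes Th1 cells to sites where interferon has induced its ligands, was at 13.2 and 9.16 CPM in Th17 and 118 and 161 CPM in Th1, a log2 fold change of 3.63 (SE 0.32, edgeR adjusted p = 1.38e-04). Ccr10, a skin-homing receptor, was at 0.371 and 0.219 CPM in Th17 and 6.09 and 18.3 CPM in Th1, a log2 fold change of 5.23 (SE 0.66, edgeR adjusted p = 7.26e-04). Cxcr1 and Cxcr2, best known from neutrophils, were also higher in Th1, Cxcr1 at 20.9 and 16.1 CPM in Th17 and 88.2 and 91.8 CPM in Th1. Cxcr2 was at 12.4 and 7.79 CPM in Th17 and 35.0 and 33.7 CPM in Th1, opposite to the rest of the neutrophil list. Ccr6, the Th17 receptor for CCL20, was at 7.23 and 5.21 CPM in Th17 and 0.239 and 0.183 CPM in Th1, a log2 fold change of -4.80 (SE 0.54, edgeR adjusted p = 4.54e-04). Ccr2, a receptor of effector T cells and monocytes, was lower in Th1 at 451 and 445 CPM in Th17 and 127 and 145 CPM in Th1 (log2 fold change -1.72, SE 0.27, edgeR adjusted p = 0.00268). Ccr1, a myeloid receptor, was at 27.5 and 56.0 CPM in Th17 and 3.02 and 1.53 CPM in Th1. Ptger2, a receptor for prostaglandin E2, was lower at 31.7 and 29.8 CPM in Th17 and 6.15 and 4.46 CPM in Th1. Ltb4r1, a receptor for leukotriene B4, was lower at 86.4 and 75.7 CPM in Th17 and 24.1 and 16.8 CPM in Th1. Selplg, an adhesion molecule of rolling cells, and S1pr1, which lets T cells leave lymph nodes, were not called. S1pr1 overlapped at 408 and 378 CPM in Th17 and 213 and 543 CPM in Th1.

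Of 30 costimulatory and inhibitory receptors, 6 were higher in Th1 and 1 was lower, beside 3.53% and 4.22% of all genes. Entpd1, which encodes the ectoenzyme CD39, was at 5.82 and 4.28 CPM in Th17 and 66.6 and 77.9 CPM in Th1, a log2 fold change of 3.82 (SE 0.32, edgeR adjusted p = 1.13e-04). Slamf7 was at 1.87 and 4.17 CPM in Th17 and 41.5 and 38.3 CPM in Th1. Lag3, an inhibitory receptor for MHC class II, was at 8.76 and 5.65 CPM in Th17 and 35.0 and 50.1 CPM in Th1. The other 3 called higher were TNF receptors. Tnfrsf18, which encodes GITR, was at 88.3 and 87.7 CPM in Th17 and 264 and 341 CPM in Th1, Tnfrsf4, which encodes OX40, at 47.7 and 35.4 CPM in Th17 and 135 and 133 CPM in Th1. Tnfrsf1b, the second TNF receptor, was at 93.4 and 65.2 CPM in Th17 and 268 and 257 CPM in Th1, with log2 fold changes of 1.78, 1.68 and 1.73. Cd83, an activation marker of dendritic and T cells, was the receptor lower in Th1, at 5.15 and 6.09 CPM in Th17 and 0.239 and 0.488 CPM in Th1 (log2 fold change -4.09, SE 0.56, edgeR adjusted p = 0.00123). The checkpoint Ctla4 was level, at 195 and 283 CPM in Th17 and 197 and 283 CPM in Th1. Cd28 was at 194 and 183 CPM in Th17 and 539 and 394 CPM in Th1 missed the threshold (log2 fold change 1.31, SE 0.29, edgeR adjusted p = 0.0125).

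Of the integrins, 5 of 16 were lower in Th1, beside 4.22% of all genes, and 1 was higher, beside 3.53%. Itgae, which encodes CD103 and is induced by TGF-β, was at 22.1 and 22.1 CPM in Th17 and 2.72 and 2.14 CPM in Th1, a log2 fold change of -3.17 (SE 0.36, edgeR adjusted p = 4.27e-04). Itga3 was at 32.1 and 21.6 CPM in Th17 and 7.73 and 6.29 CPM in Th1 (log2 fold change -1.93, SE 0.35, edgeR adjusted p = 0.00478). The other lower members belong to myeloid cells or platelets: Itgam was at 52.6 and 68.0 CPM in Th17 and 5 and 9.28 CPM in Th1, Itga2b at 61.7 and 74.6 CPM in Th17 and 26.5 and 15.2 CPM in Th1. Itgax was at 1.4 and 23.1 CPM in Th17 and 0.269 and 0.122 CPM in Th1, the last with a log2 fold change of -2.67 without Th17 replicate 2 against -5.74. Itgb3, the partner of the αv and αIIb chains, was higher in Th1 at 111 and 98.3 CPM in Th17 and 333 and 598 CPM in Th1 (log2 fold change 2.15, SE 0.34, edgeR adjusted p = 0.00258). Itgal and Itgb2, the pair forming LFA-1, were above Th17 in both Th1 libraries without being called.

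Genes induced by interferons made up the group with the most members called, 23 of 48 higher in Th1 and none lower, beside 3.53% of all genes. When scaled by library size alone 13 were called, with DESeq2 32, and without Th17 replicate 1 or without Th17 replicate 2 only 2. All 48 had positive log2 fold changes, beside 49.1% of all genes tested, with a median of 2.00. Type I interferons act through the factor ISGF3 at interferon-stimulated response elements, and IFN-γ acts at gamma-activated sites. The 250 bases upstream of 4 called genes (RefSeq, GRCm38.p6) show the core of the former, GAAANNGAA, or its reverse complement, in capitals, 2 from genes far higher in Th1 replicate 1 and 2 from genes at like levels in both Th1 replicates.
Ifit3 (chr19:34583279-34583528, plus strand): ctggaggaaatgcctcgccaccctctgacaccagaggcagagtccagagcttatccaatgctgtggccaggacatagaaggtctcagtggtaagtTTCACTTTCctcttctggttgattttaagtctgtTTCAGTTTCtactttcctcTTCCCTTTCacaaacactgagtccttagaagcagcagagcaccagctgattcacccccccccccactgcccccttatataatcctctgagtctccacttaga
Ifit1 (chr19:34640639-34640888, plus strand): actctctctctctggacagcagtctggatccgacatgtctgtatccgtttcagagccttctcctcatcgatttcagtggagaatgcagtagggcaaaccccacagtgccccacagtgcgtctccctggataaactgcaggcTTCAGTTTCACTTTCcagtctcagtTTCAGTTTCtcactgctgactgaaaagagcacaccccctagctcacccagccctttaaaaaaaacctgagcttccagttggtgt
Gbp2 (chr3:142620413-142620662, plus strand): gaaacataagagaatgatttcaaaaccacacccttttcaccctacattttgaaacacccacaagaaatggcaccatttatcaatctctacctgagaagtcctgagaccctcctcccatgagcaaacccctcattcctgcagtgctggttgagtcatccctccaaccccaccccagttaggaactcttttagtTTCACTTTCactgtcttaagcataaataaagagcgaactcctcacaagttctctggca
Igtp (chr11:58199306-58199555, plus strand): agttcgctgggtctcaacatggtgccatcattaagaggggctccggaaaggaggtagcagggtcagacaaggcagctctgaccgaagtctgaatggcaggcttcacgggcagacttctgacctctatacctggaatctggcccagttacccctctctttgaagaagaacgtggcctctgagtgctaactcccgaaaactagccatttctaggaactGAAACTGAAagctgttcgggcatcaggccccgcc
Ifit3 and Ifit1 held 3 matches each, which overlap in Ifit1, and Gbp2 and Igtp held 1 each, 58 and 34 bases before the start. In promoters of 250 bases before to 50 after the start, the core occurred in 22 of the 36 interferon-stimulated genes found in the table and in 9.76% of all 27025 genes. The gamma-activated site TTCNNNGAA occurred in 13 of the 36 and in 9.55% of all genes. A match shows the letters only.

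Gbp2, a guanylate-binding protein of cell-autonomous defence, was at 143 and 102 CPM in Th17 and 2339 and 3202 CPM in Th1, a log2 fold change of 4.50 (SE 0.39, edgeR adjusted p = 1.21e-04). Iigp1 and Igtp, IFN-γ-induced GTPases that attack vacuoles, were even between the Th1 replicates, Iigp1 at 14.4 and 10.5 CPM in Th17 and 263 and 205 CPM in Th1 (log2 fold change 4.23, SE 0.32, edgeR adjusted p = 6.00e-05). Igtp was at 149.9 and 138 CPM in Th17 and 893 and 908 CPM in Th1 (log2 fold change 2.64, SE 0.29, edgeR adjusted p = 3.90e-04). Ifi44 (chr3:151730922-151749960, minus strand) had no count in either Th17 library and 15.5 and 15.9 CPM in Th1, at least 150.2-fold higher against 3 counts in each Th17 library. Ifit3, Ifit1 and Oasl2 were higher in Th1 replicate 1 than in Th1 replicate 2. Ifit3 was at 0.861 and 0.768 CPM in Th17 and 87.7 and 14.7 CPM in Th1, a log2 fold change of 5.96 (SE 0.79, edgeR adjusted p = 0.00104). Ifit1, which binds viral RNA caps, was at 1.48 and 1.65 CPM in Th17 and 69.7 and 7.69 CPM in Th1, a log2 fold change of 4.65 (SE 0.86, edgeR adjusted p = 0.00546). Oasl2, of the oligoadenylate synthetase family, was at 0.802 and 0.549 CPM in Th17 and 59.0 and 11.1 CPM in Th1, a log2 fold change of 5.64 (SE 0.76, edgeR adjusted p = 0.00112). The members were a median of 0.99 log2 units higher in Th1 replicate 1 than in Th1 replicate 2, and without replicate 1 the median of the list was 1.17. For Ifit1 the log2 fold change was 2.32 without that library. Rsad2, Mx1 and Isg15 were not called, and Rsad2 was at 0.534 and 0.494 CPM in Th17 and 19.7 and 0.672 CPM in Th1, near the Th17 level in Th1 replicate 2. The IFN-γ-induced proteasome subunit Psmb8 and the GTPases Ifi47 and Gbp4 were not called, and Psmb8 was at 422 and 591 CPM in Th17 and 657 and 622 CPM in Th1. Counts of closely related copies such as the Gbp, Oas, Ifit, Irgm and Tgtp genes are uncertain, since reads that fit more than 1 copy may have been split or dropped.

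Of 25 JAK, STAT and SOCS genes, only Socs1 and Pim2 were called, both higher in Th1, beside 3.53% of all genes. Socs1, the feedback inhibitor of interferon signalling, was at 78.5 and 62.2 CPM in Th17 and 201 and 301 CPM in Th1, a log2 fold change of 1.83 (SE 0.30, edgeR adjusted p = 0.00327). Pim2, a survival kinase induced by cytokines, was at 127 and 124 CPM in Th17 and 853 and 990.4 CPM in Th1, a log2 fold change of 2.88 (SE 0.30, edgeR adjusted p = 2.83e-04). Socs3, which restrains IL-6 signalling, was at 671 and 495 CPM in Th17 and 337 and 478 CPM in Th1, lower in both Th1 libraries and not called. The median of the list was 0.67, with 22 of 25 log2 fold changes positive, beside 49.1% of all genes tested.

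Of 24 TGF-β signalling genes, 4 were lower in Th1, beside 4.22% of all genes, and 1 was higher, beside 3.53%. Tgfbi, a matrix protein named for its induction by TGF-β, was lower at 14.3 and 25.8 CPM in Th17 and 0.179 and 0.305 CPM in Th1 (log2 fold change -6.51, SE 0.55, edgeR adjusted p = 1.13e-04). Skil, which encodes the SMAD repressor SnoN, was at 82.4 and 93.5 CPM in Th17 and 32.2 and 23.0 CPM in Th1 (log2 fold change -1.67, SE 0.28, edgeR adjusted p = 0.00368), and Itgae has been given above. Lrrc32, which encodes GARP, the surface anchor of latent TGF-β, was the member higher in Th1, at 18.8 and 10.3 CPM in Th17 and 40.4 and 72.9 CPM in Th1 (log2 fold change 1.95, SE 0.39, edgeR adjusted p = 0.00866). It was not called when scaled by library size alone, with the edgeR replicate block or with all 6 libraries in one fit. The receptors and SMADs themselves were not called, and Tgfbr2 overlapped at 348 and 276 CPM in Th17 and 323 and 545 CPM in Th1. The median of the list was 0.05, but -0.04 with DESeq2 and -0.17 when scaled by library size alone.

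Of 30 genes of the T cell receptor and its proximal signalling, 4 were higher in Th1, beside 3.53% of all genes. Fyn, a Src family kinase, was at 229 and 191 CPM in Th17 and 708 and 993 CPM in Th1, a log2 fold change of 2.02 (SE 0.31, edgeR adjusted p = 0.00231). Cblb and Ubash3a, which damp receptor signalling, were both called. Cblb was at 55.6 and 44.4 CPM in Th17 and 199.6 and 230.0 CPM in Th1 (log2 fold change 2.10, SE 0.27, edgeR adjusted p = 9.33e-04). Ubash3a was at 72.7 and 77.1 CPM in Th17 and 163 and 240.4 CPM in Th1 (log2 fold change 1.43, SE 0.28, edgeR adjusted p = 0.00807). Rasgrp1, which links diacylglycerol to Ras, was at 126 and 92.3 CPM in Th17 and 325 and 312 CPM in Th1 (log2 fold change 1.55, SE 0.28, edgeR adjusted p = 0.00518). The receptor subunit Cd3d overlapped at 659 and 1134 CPM in Th17 and 540.5 and 819.9 CPM in Th1. No member was lower, and the median of the list was 0.48. Of 30 MAPK, PI3K and mTOR genes, 4 were lower, beside 4.22% of all genes, and none higher. Of these, 3 belong to the p38 branch: Mapk13 at 5.95 and 5.87 CPM in Th17 and 0.612 and 0.366 CPM in Th1 (log2 fold change -3.51, SE 0.50, edgeR adjusted p = 0.00147), Mapk11 at 35.2 and 29.5 CPM in Th17 and 11.0 and 7.14 CPM in Th1 (log2 fold change -1.83, SE 0.34, edgeR adjusted p = 0.00546) and their activator Map2k6 at 9.55 and 14.8 CPM in Th17 and 2.34 and 3.66 CPM in Th1 (log2 fold change -2.03, SE 0.42, edgeR adjusted p = 0.00969). Mapk14, the p38 kinase of most cells, was at 152 and 124 CPM in Th17 and 159 and 176 CPM in Th1 and was not called. Sgk1, a salt-sensing kinase that stabilises Il23r expression in Th17 cells, was at 116 and 121 CPM in Th17 and 35.4 and 33.6 CPM in Th1, a log2 fold change of -1.78 (SE 0.25, edgeR adjusted p = 0.00146), with no overlap between the groups.

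Of 20 cytotoxic granule genes, 3 were higher in Th1, beside 3.53% of all genes, and none lower. The list as a whole leaned neither way, with 10 positive and 10 negative log2 fold changes and a median of -0.03. Nkg7, a granule protein needed for killing, was at 8.14 and 6.58 CPM in Th17 and 105 and 137 CPM in Th1, a log2 fold change of 4.03 (SE 0.31, edgeR adjusted p = 6.00e-05). Gzma was at 46.6 and 27.8 CPM in Th17 and 131 and 287 CPM in Th1 (log2 fold change 2.48, SE 0.41, edgeR adjusted p = 0.00337). Ctsw was at 62.4 and 88.3 CPM in Th17 and 199 and 288 CPM in Th1 (log2 fold change 1.69, SE 0.31, edgeR adjusted p = 0.00521). Gzmb, the main granzyme of activated T cells, was higher in Th1 in both replicates at 368 and 323 CPM in Th17 and 862 and 447 CPM in Th1 but was not called (log2 fold change 0.92, SE 0.35, edgeR adjusted p = 0.0882), and perforin, Prf1, overlapped at 13.5 and 10.9 CPM in Th17 and 7.67 and 21.9 CPM in Th1. None of the 10 CD8 T and NK cell markers was called higher in Th1.

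Among the metabolic lists, lipid synthesis had the most members called. Of 31 cholesterol and fatty acid genes, 10 were higher in Th1 and none lower (3 called when scaled by library size alone). In 29 the log2 fold change was positive, beside 49.1% of all genes tested, and the median was 1.13. Srebf2 and Srebf1, the factors that switch on cholesterol and fatty acid synthesis, were both called. Srebf2 was at 241 and 159.6 CPM in Th17 and 674 and 664 CPM in Th1 (log2 fold change 1.74, SE 0.31, edgeR adjusted p = 0.00463). Srebf1 was at 112 and 71.7 CPM in Th17 and 331 and 259 CPM in Th1 (log2 fold change 1.68, SE 0.31, edgeR adjusted p = 0.00569). Scd2 and Scd1, which desaturate fatty acids, were called too. Scd2 was at 107 and 119 CPM in Th17 and 893 and 675 CPM in Th1 (log2 fold change 2.80, SE 0.31, edgeR adjusted p = 3.80e-04). Scd1 was at 3.47 and 4.06 CPM in Th17 and 26.8 and 12.8 CPM in Th1 (log2 fold change 2.41, SE 0.42, edgeR adjusted p = 0.00452). Acaca, which commits acetyl-CoA to fatty acids, was at 24.7 and 15.8 CPM in Th17 and 83.3 and 60.1 CPM in Th1. Mvk, of the mevalonate pathway, was at 14.7 and 17.2 CPM in Th17 and 53.5 and 57.1 CPM in Th1. The sterol enzymes Lss and Dhcr7 were also called, with log2 fold changes of 1.66 and 1.53. Most members were higher in Th1 replicate 1 than in replicate 2, by a median of 0.47 log2 units, and the median of the list without replicate 1 was 0.90.

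Glycolysis and hypoxia genes leaned the same way with fewer calls, 2 of 29, beside 3.53% of all genes. Slc2a1, the glucose transporter GLUT1, was at 108 and 80.1 CPM in Th17 and 295 and 324 CPM in Th1, a log2 fold change of 1.72 (SE 0.28, edgeR adjusted p = 0.00326). Egln3, an oxygen-sensing hydroxylase, was at 156 and 117 CPM in Th17 and 333 and 409 CPM in Th1, a log2 fold change of 1.44 (SE 0.29, edgeR adjusted p = 0.00844). In 25 of the 29 both Th1 libraries were above both Th17 libraries, beside 4212 of the 13189 genes tested. The median log2 fold change was 0.74. The enzymes Pkm, Ldha and Pgk1 did not pass the test, with Pkm at 2407 and 2029.7 CPM in Th17 and 3512 and 3526 CPM in Th1. Ldha was at 1459 and 1522 CPM in Th17 and 1888 and 1793 CPM in Th1. Neither glycolysis gene was called when scaled by library size alone. None of 30 genes of the TCA cycle and mitochondrial carbon entry was called by edgeR, where 3 were called by DESeq2, and their median was -0.15. Mdh2, malate dehydrogenase, was at 222 and 242 CPM in Th17 and 242 and 276 CPM in Th1. Of 30 genes of amino acid transport, serine and one-carbon metabolism, 1 was higher, beside 3.53% of all genes, and 3 were lower, beside 4.22%. Slc38a2, a glutamine transporter, was higher at 116 and 105 CPM in Th17 and 302 and 243 CPM in Th1 (log2 fold change 1.30, SE 0.27, edgeR adjusted p = 0.00969). It was not called when scaled by library size alone or with all 6 libraries in one fit. Slc7a11, the cystine importer, was lower at 3.44 and 19.9 CPM in Th17 and 0.343 and 0.061 CPM in Th1, and its log2 fold change moved from -5.49 to -3.81 without Th17 replicate 2. Arg2 was at 1.41 and 1.81 CPM in Th17 and 0.0597 and 0.122 CPM in Th1. Cth, at the limit of 3 counts in Th1, was at least 5.62-fold lower. The median of the list was 0.16, and -0.04 when scaled by library size alone.

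Cell cycle genes tracked 1 library. Of 35 tested, only Myc and Ccnd2 were called, both higher in Th1, beside 3.53% of all genes. Myc, the growth factor response gene, was at 81.7 and 72.4 CPM in Th17 and 263 and 511 CPM in Th1, a log2 fold change of 2.33 (SE 0.35, edgeR adjusted p = 0.00211). Ccnd2, a cyclin of early G1, was at 139.5 and 128 CPM in Th17 and 372 and 396 CPM in Th1, a log2 fold change of 1.52 (SE 0.27, edgeR adjusted p = 0.00445). Top2a, which untangles DNA in dividing cells, was at 371 and 342 CPM in Th17 and 1535 and 386 CPM in Th1. Mki67, the proliferation marker, was at 151 and 79.8 CPM in Th17 and 823 and 175 CPM in Th1. Both were far higher in Th1 replicate 1 than in the other 3 libraries. Over the list Th1 replicate 1 was a median of 1.54 log2 units above Th1 replicate 2, and the median log2 fold change of 0.61 became -0.24 without Th1 replicate 1 and 1.29 without Th1 replicate 2. Among 16 Bcl2 family genes, 2 were higher and 2 lower in Th1, beside 3.53% and 4.22% of all genes. Bcl2l11, which encodes the death inducer BIM, was at 50.6 and 36.1 CPM in Th17 and 353 and 321 CPM in Th1, a log2 fold change of 2.96 (SE 0.30, edgeR adjusted p = 2.60e-04). Bak1, a pore former of mitochondria, was at 82.0 and 52.0 CPM in Th17 and 199 and 183 CPM in Th1 (log2 fold change 1.51, SE 0.30, edgeR adjusted p = 0.00757). The survival genes Bcl2a1d and Bcl2a1b, near-identical copies also active in myeloid cells, were lower, Bcl2a1d at 29.8 and 52.9 CPM in Th17 and 4.02 and 1.83 CPM in Th1. Bcl2a1b was at 37.3 and 80.4 CPM in Th17 and 10.3 and 8.55 CPM in Th1.

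**Figure D5:**
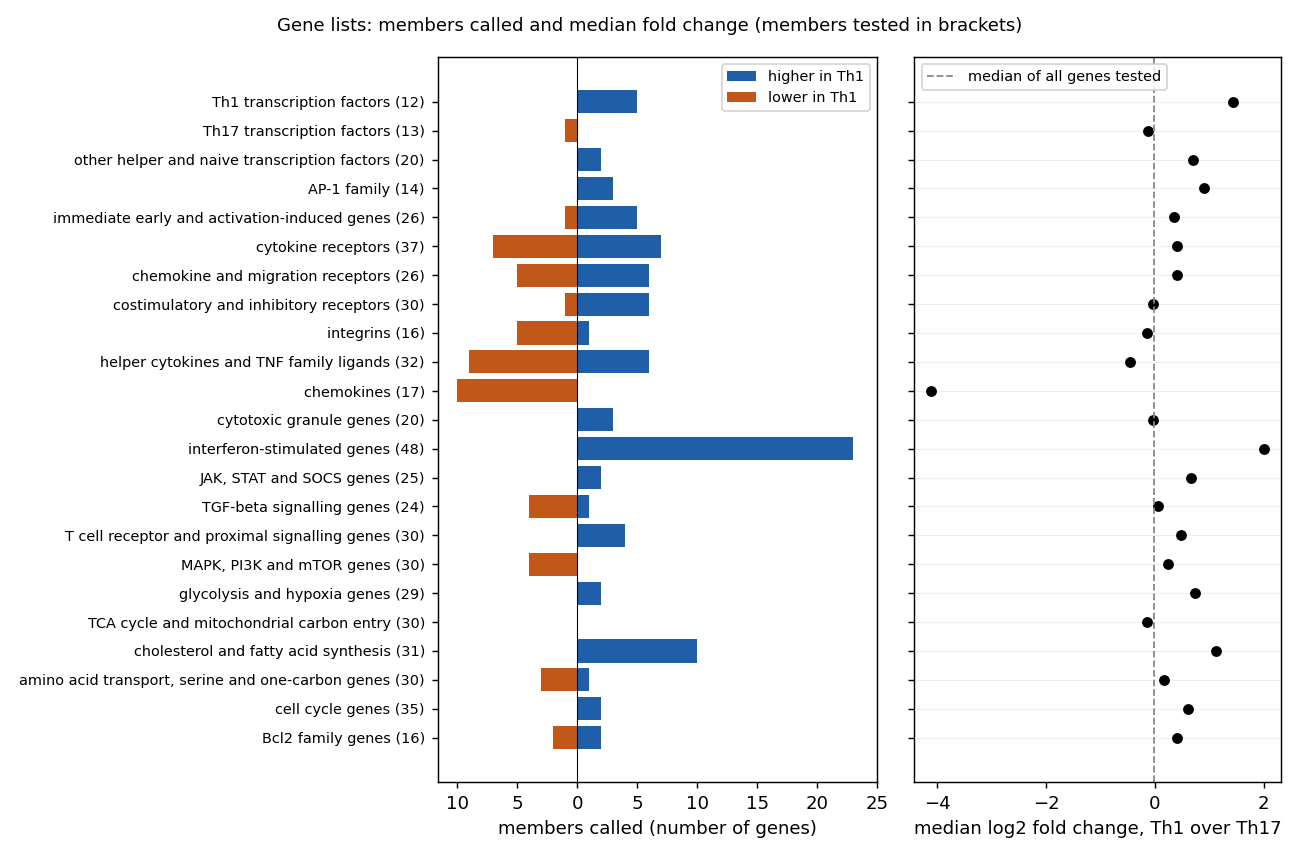
For 23 gene lists with the number of members tested in brackets, the number of members called higher (blue, right) or lower (orange, left) in Th1 (left panel, number of genes) and the median log2 fold change of the members tested (right panel, black points, with the median of all genes tested as a dashed line). Interferon-stimulated genes had the most members called higher, 23 of 48, and chemokines the most called lower, 10 of 17.

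The largest changes among well-counted genes were of a mixed kind. With more than 3 counts required in every library and a mean of at least 10 CPM in the higher cell type, the 12 genes most raised in Th1 included Fos, Ifit3, I830012O16Rik, Oasl2, Tmem151b, Fam19a3, Tbx21, Tmem106a, Sulf2, Ccr10 and Egr1. Fam19a3, a small secreted protein, was at 1.2 and 0.713 CPM in Th17 and 49.1 and 39.1 CPM in Th1 (log2 fold change 5.45, SE 0.40, edgeR adjusted p = 5.47e-05). Sulf2, which trims heparan sulphate, was at 1.57 and 0.384 CPM in Th17 and 52.5 and 32.4 CPM in Th1 (log2 fold change 5.29, SE 0.57, edgeR adjusted p = 3.64e-04). Tmem106a and Tmem151b, membrane proteins, were higher in Th1 replicate 2, Tmem106a at 3.04 and 3.51 CPM in Th17 and 56.2 and 199.7 CPM in Th1. Tmem151b was at 1.69 and 0.658 CPM in Th17 and 32.3 and 86.2 CPM in Th1. I830012O16Rik was higher in Th1 replicate 1, at 0.163 and 0.439 CPM in Th17 and 23.8 and 4.94 CPM in Th1, as the antiviral genes were. The 12 genes most lowered in Th1 were Mmp12, Cd177, S100a8, S100a9, Ltf, Crispld2, Prg2, Camp, Msr1, Ctsh, Hp and Tgfbi. No helper cell cytokine or receptor was among them. The Il17 genes and Il22 did not exceed 3 counts in Th1 replicate 2, while Il23r and Il1r1 had smaller changes (log2 fold changes -4.63 and -4.32). S100a8, S100a9, Ltf and Camp were themselves on the neutrophil list and Prg2 on the eosinophil list. Cd177, a surface protein of neutrophils, was at 45.5 and 26.8 CPM in Th17 and 0.105 and 0.366 CPM in Th1 (log2 fold change -7.66, SE 0.61, edgeR adjusted p = 8.13e-05). Hp, haptoglobin, was at 50.5 and 48.3 CPM in Th17 and 0.552 and 0.427 CPM in Th1 (log2 fold change -6.59, SE 0.39, edgeR adjusted p = 2.25e-05). Mmp12, macrophage elastase, was at 5.45 and 387 CPM in Th17 and 0.627 and 0.366 CPM in Th1, so a single Th17 library held nearly all of its counts, and Msr1, a macrophage scavenger receptor, was uneven in the same way at 3.43 and 37.4 CPM in Th17 and 0.105 and 0.366 CPM in Th1.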

How the data were processed

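RNA-Seq was performed on Naive, Th17 and Th1 cells, with 2 libraries of each, and the Th17 and Th1 libraries were compared here. Per the labels, polyadenylated RNA was reverse transcribed by Smart-seq2 and made into TruSeq libraries. Per the study's methods and the submitters' processing notes, reads were aligned to mm10 with HISAT2 2.2.1, and the authors counted reads per gene with HTSeq 0.13.5. The methods name a removal of duplicate reads, a step the study's supplementary code does not contain, and the release of the gene annotation is not given in the sources used here. The deposited raw count of each gene was used, and normalized columns and results of the authors' own tests (StringTie 2.1.7, DESeq2 1.34.0) were not used. The labels and methods describe the libraries as replicates, and the p-values measure the spread between these.

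Genes were filtered with filterByExpr, scaled by TMM and tested with the quasi-likelihood test of edgeR 4.0.16 (R 4.3.3, limma 3.58.1) over the 4 libraries. A call needed a more than 2-fold difference in either direction and a Benjamini-Hochberg adjusted p under 0.01. The SE was taken as the absolute log2 fold change divided by the square root of F. A gene with at most 3 counts in each library of a group was treated as at the limit, and a fold against it was computed from 3 counts per library, for counting error only. The scripts were tested on simulated data. DESeq2 1.42.0, other scalings, filters and thresholds, a replicate block, thinning, all 6 libraries in one fit and the omission of each library were the alternatives. The comparison and the gene lists were chosen with earlier results of these data known. Named genes were Tbx21, Fos, Cxcr3, Maf, Hif1a and Jun, the 12 largest changes in each direction as defined in the text, and in each list up to 6 called members in each direction and the 3 members not called with the highest mean CPM. Other list members that are named were chosen after their values were seen. Promoter sequences came from RefSeq (GRCm38.p6), with a promoter for 36 of 48 interferon-stimulated, 20 of 26 immediate early and 13 of 15 AP-1 genes. Some genes that met these rules are not reported here.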

Additional observations from a re-analysis of the deposited data

How the results depend on the processing

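Counts of calls depended on the settings, given here as genes higher and lower in Th1, with members of all gene lists called (176 with the settings of the report) last. DESeq2 gave 1043, 952 and 266, no filter on low counts 1304, 1151 and 299, an adjusted p under 0.05 gave 1170, 1338 and 287, and a test against a fold change of 2 gave 192, 318 and 105. Scaling by library size alone gave 211 higher and 402 lower, and a minimum of 10 counts in every library 377 and 261, so that 59.1% of the calls were higher in Th1. With 1 library left out, the counts ranged from 17 to 1114 higher and from 40 to 1029 lower, and the members of lists from 26 to 263. The low ends came without a Th17 library, when the lone Th17 library was assumed to vary like Th1. The other alternatives, apart from the replicate block with DESeq2, stayed within 1.5 times of the counts reported.

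The replicate numbers were not taken to pair the samples. Across genes, the deviations of Th1 replicate 1 and Th17 replicate 1 from their group means correlated at 0.074. With 2 libraries per group the replicate 2 deviations mirror these, so this single value does not settle the pairing. With the replicate block edgeR called 395 genes higher and 445 lower, among them 364 and 428 of those reported. DESeq2 with the block called 977 and 745 (56.7% of the calls higher), with 268 members of lists.

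No fold change printed for a single gene changed sign under any alternative. Most of these genes were called, so this follows largely from which fold changes were printed. Among genes given by level alone, several did change sign with 1 library left out, Nr4a1, Cd3d, Csf2, Ctla4 and Cd8a among them. With 2 libraries per group, uneven depth and unlike Th1 replicates, small differences could not be resolved, and genes that missed the threshold are not shown to be equal.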

Other observations

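The Naive libraries give a further reference for these differences, on a common scale of all 6 libraries and with no test. Several genes higher in Th1 than in Th17 were also well expressed in Naive cells. Fos was at 62.8 and 160.4 CPM in Naive, 3.23 and 1.58 CPM in Th17 and 54.7 and 272 CPM in Th1, so Th17 held the low values and the Naive and Th1 libraries overlapped. The same order held for Fosb at 15.7 and 17.4 CPM in Naive, 0.933 and 0.283 CPM in Th17 and 4.86 and 16.1 CPM in Th1 and for Dusp1 at 72.7 and 131 CPM in Naive, 20.1 and 16.6 CPM in Th17 and 71.9 and 154 CPM in Th1, while Jun was highest in Th1 at 117 and 238 CPM in Naive, 54.0 and 35.1 CPM in Th17 and 793 and 1478 CPM in Th1. Gata3 was at 57.5 and 82.4 CPM in Naive, 18.4 and 8.54 CPM in Th17 and 117 and 241 CPM in Th1, again lowest in Th17.

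Other genes were lower in Naive cells than in either culture and highest in Th1. Il12rb2 was at 3.82 and 3.76 CPM in Naive, 11.1 and 6.68 CPM in Th17 and 338 and 281 CPM in Th1, Csf1 at 3.83 and 4.61 CPM in Naive, 10.3 and 7.13 CPM in Th17 and 355 and 262 CPM in Th1 and Gbp2 at 43.5 and 48.1 CPM in Naive, 148 and 105 CPM in Th17 and 2424 and 3316 CPM in Th1. Hif1a was in the same order, at 92.7 and 126 CPM in Naive, 518 and 496 CPM in Th17 and 1143 and 1073 CPM in Th1. S100a8 was at 0.969 and 0.149 CPM in Naive, 1149 and 1142 CPM in Th17 and 6.78 and 5.75 CPM in Th1, lowest in the Naive cells. The neutrophil list as a whole was lowest in Th1 instead, with sums of 423 and 245 CPM in Naive, 3426 and 3258 CPM in Th17 and 80.9 and 102.5 CPM in Th1. Ifi44, with no count in Th17, was at 1.64 and 0.941 CPM in Naive, 0 and 0 CPM in Th17 and 16.1 and 16.4 CPM in Th1.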
